A study of Mus musculus with 12 samples.

Results

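Alpha joins without added nucleotides are rearranged T cell receptor (TCR) alpha chains in which the called end of the V segment meets or overlaps the called start of the J segment, so that no base between them is left unassigned. They were taken from the alpha and delta clonotype tables of 12 libraries. Of 163123 productive alpha rows (TRAV and TRAJ best hits, an open CDR3, and without the 15-residue TRAV11 and TRAJ18 chain of invariant NKT cells), 47304 had 0 or fewer added nucleotides, 79729 had 1 to 3 and 36090 had 4 or more. A library held 3135 to 4446 such rows. Rows with the same V, J and CDR3 nucleotides in a library were merged into 44716 clonotypes without added nucleotides, of 156851 in all, and these carried 121250 of 330742 reads.

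The study sorted thymocytes of Chrna9-/- mice (knockout, KO) and wild type (WT) mice, that is, mice without and with the alpha 9 subunit of the nicotinic acetylcholine receptor. The 4 groups were KO CD4 single-positive (CD4SP), WT CD4SP, KO CD8 single-positive (CD8SP) and WT CD8SP cells, with 3 libraries each, from 6 mice that formed male and female pairs of KO and WT animals. No treatment was given, and the strain, the age and the sex of each numbered pair are not given in the labels. Sorting used CD4 and CD8 alone, on 1000000 CD4SP or 330000 CD8SP cells, so each gate can hold immature and invariant cells as well. Productive alpha reads per library, without the invariant chain, numbered 18555 to 33867. That chain made up 5.26% to 8.49% of productive reads in CD4SP libraries and 0.0495% to 0.0897% in CD8SP libraries, and the 12-residue TRAV1 and TRAJ33 chain of MAIT cells had 0 to 10 reads per library. TCR reads cannot show whether Chrna9 was lost, and the genotypes are those of the labels.

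The alpha chain gene is assembled in immature thymocytes. The RAG proteins cut beside a V and a J segment and leave hairpin ends, whose off-centre opening can leave a few palindromic bases. Exonucleases can then trim the ends, and the polymerase TdT can add bases that no gene encodes. Where TdT adds none, a CDR3, the loop that touches the peptide, is made of germline and palindromic bases alone, and short stretches that both ends share can align them. The locus can rearrange repeatedly, first with J segments near the V cluster (high TRAJ numbers) and later with those near the constant gene (low TRAJ numbers).

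The clonotypes without added nucleotides that were found in most libraries are printed to show how such joins are built. Each sequence is the CDR3 on the coding strand, 5′ to 3′, from the deposited tables, with the chromosome given by RefSeq for build GRCm38.p6. All segments lie on chromosome 14. Capitals mark bases covered by both the V and the J call, bases called palindromic included.
TRAV14N-3 with TRAJ22: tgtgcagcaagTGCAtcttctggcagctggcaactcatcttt
TRAV3D-3 with TRAJ22: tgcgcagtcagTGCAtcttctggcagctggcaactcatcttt
TRAV7-2 with TRAJ9: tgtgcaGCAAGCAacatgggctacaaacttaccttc
TRAV6-6 with TRAJ30: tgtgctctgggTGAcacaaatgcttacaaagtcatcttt
TRAV7-2 with TRAJ23: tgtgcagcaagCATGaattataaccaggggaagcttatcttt
TRAV7-2 with TRAJ12: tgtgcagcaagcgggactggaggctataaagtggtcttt
The commonest untrimmed ends of the segments in the first of these joins, read from all clonotypes that keep them, are printed for comparison.
TRAV14N-3 end: tgtgcagcaagtg
TRAJ22 end: catcttctggcagctggcaactcatcttt
In TRAV14N-3 with TRAJ22 these untrimmed ends lie directly against each other, and the last 2 bases of each serve as the palindrome of the other, so 4 bases are covered by both calls. The same 42-base CDR3 was also found with TRAV14D-2 and TRAV14D-1, whose ends are the same. In TRAV7-2 with TRAJ9 and in TRAV6-6 with TRAJ30 the germline ends themselves overlap, by 4 and 3 bases. The first 3 capitals of TRAV7-2 with TRAJ9 were called palindromic for J, but are not an exact palindrome of the commonest TRAJ9 end. In TRAV7-2 with TRAJ12 each end lost 1 base and the rest abut with nothing shared.

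For contrast, the joins of 4 or more added nucleotides found in most libraries are given with the bases covered by neither call in capitals.
TRAV7-5 with TRAJ24: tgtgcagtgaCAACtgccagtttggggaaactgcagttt
TRAV7-2 with TRAJ37: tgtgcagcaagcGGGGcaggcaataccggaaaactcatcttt
The commonest joins without added nucleotides were in all 12 libraries, whereas these were in 11 and 10. For TRAJ24, 80.6% of 1611 joins carried the same bases next to the called J end, as described further below. Whether the capitals of TRAV7-5 with TRAJ24 are added bases or part of the J segment was not tested. That join is therefore a contrast only as called.

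The number of added nucleotides peaked at 2 (17.3% of clonotypes), and the joins without any formed the left flank of the distribution. Just inside the limit of the class, joins with exactly 0 made up 10.4% ± 0.193 of a library's clonotypes, and just outside it joins with 1 made up 16.5% ± 0.262 (SD over 12 libraries). They made up 35.5% ± 0.709 of productive alpha reads in KO CD4SP, 35.9% ± 0.612 in WT CD4SP, 37.5% ± 0.393 in KO CD8SP and 37.3% ± 0.298 in WT CD8SP libraries (SD, n = 3 each). As a share of clonotypes they made up 27.8% to 28.8% in CD4SP and 28.7% to 29.2% in CD8SP libraries. Among out-of-frame and stop rows, which cannot be selected through this chain, 26.1% to 29.6% had no added nucleotide in a library. These tables count reads and not molecules, so a larger share of reads can come from more cells or from more RNA per cell, and the libraries cannot tell these apart.

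**Figure D1:**
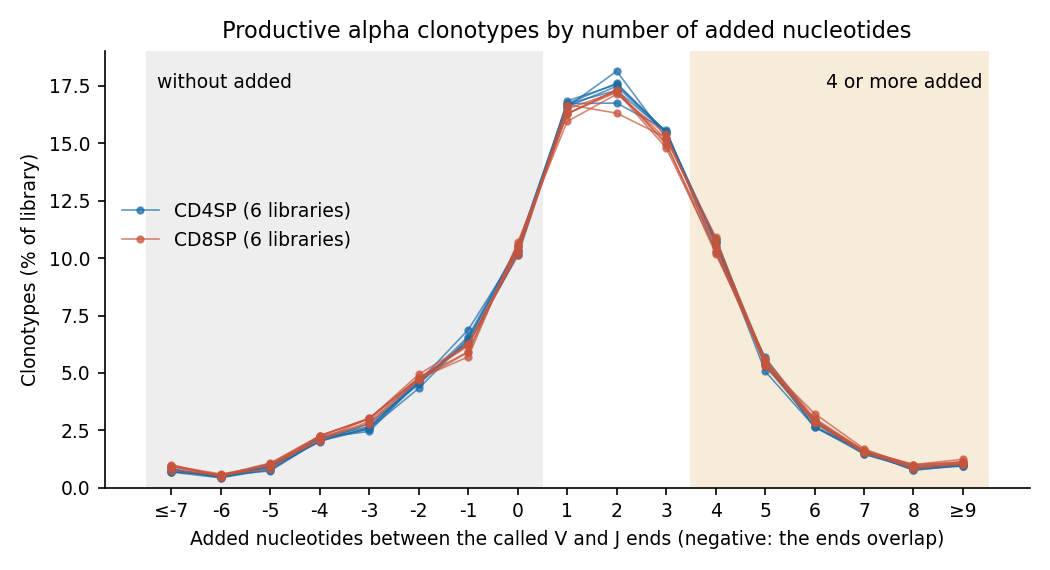
Clonotypes of each library (% of its clonotypes, y axis) by the number of added nucleotides (x axis, negative where the called ends overlap), one line per library. The 12 libraries lie close together, and joins of 0 or less, shaded on the left, make up 27.8% to 29.2% of clonotypes.

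How the ends met varied within the joins without added nucleotides. Averaged over 12 libraries, the germline parts of V and J overlapped in 35.1% ± 1.35 of clonotypes and abutted exactly in 34.8% ± 0.760. In 30.1% ± 1.33 a gap between them was filled by bases called palindromic. Both ends were untrimmed in 18.2% ± 0.423 of clonotypes (SD over 6 mice), against 2.43% ± 0.238 among joins of 4 or more. The called ends, palindromes included, shared 0 bases in 36.4% of clonotypes, 1 base in 22.0%, 2 in 16.4%, 3 in 9.77% and 4 in 7.52%. Of 981 distinct shared stretches, the most frequent were A (3511 clonotypes), G (2877, of which 19.3% used TRAJ12), C (1867), T (1539) and TG (1337, of which 17.6% used TRAJ22).

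Part of this class rests on how the ends were called. When each CDR3 was matched base by base to the commonest untrimmed end of its own V and J, allowing up to 4 exact palindromic bases, 29893 of the 44716 clonotypes (66.9%, with 75.7% of their reads) again needed no added base. A further 12897 (28.8%) left 1 to 3 bases unmatched, and 1926 (4.31%) left 4 or more. Bases called palindromic were exact palindromes in 61.9% of 13396 J ends and 71.6% of 15148 V ends in this class. Among joins of 4 or more they were exact in 97.7% of 2320 J ends and 98.4% of 4936 V ends. The share that held by exact match was 67.7% ± 0.897 in CD4SP and 66.1% ± 0.586 in CD8SP libraries, and as a share of the class's reads 76.8% ± 0.506 and 74.8% ± 1.13 (SD, n = 6 each), with ranges that overlapped in both measures.

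Joins without added nucleotides were found again in other mice about as often as not, whereas joins of 4 or more rarely were. With every library thinned to 18555 reads, 52.9% ± 0.667 of clonotypes without added nucleotides in a library were also present in at least 1 library of the other mice, against 5.53% ± 0.364 of clonotypes with 4 or more (SD over 6 mice). Over the 12 libraries the lowest, median and highest shares were 50.8%, 52.9% and 55.2% without added nucleotides, and 4.24%, 5.59% and 6.38% with 4 or more, so the classes did not overlap. The difference of 47.4 ± 0.620 percentage points had the same direction in 6 of 6 mice (two-sided exact permutation of signs, p = 0.03125, below which 6 mice cannot go, adjusted p = 0.0349 over 19 measures). As amino acid clonotypes the shares were 63.9% and 15.6%. Among clonotypes with a single read, 40.4% without added nucleotides and 4.55% with 4 or more were shared, and among CDR3s of 36 to 42 bases 56.8% and 6.56% were.

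Sharing fell with each base from an overlap of 4 bases to 5 added ones. It averaged 59.3% where the called ends overlapped by 4 bases, after 50.9% at an overlap of 5, and was 51.1% where they met, 40.6% at 1 added nucleotide, 25.5% at 2, 16.5% at 3, 8.59% at 4 and 3.63% at 5. Within the class, clonotypes that also met by exact match were shared in 64.6% ± 0.615, those with 1 to 3 unmatched bases in 31.3% ± 1.02, and those with 4 or more in 4.43% ± 0.679 (adjusted p = 0.0402 for each difference, exact permutation over 6 mice, 9 comparisons). The last 2 values lie near the 27.8% of joins called with 1 to 3 and the 5.53% of joins called with 4 or more. Clonotypes in which a called palindrome filled a gap were shared in 43.6% ± 0.867, against 56.2% ± 0.709 where the germline ends abutted and 57.4% ± 1.17 where they overlapped (adjusted p = 0.0402 for both differences from the palindromic joins, exact permutation). Joins with both ends untrimmed were shared in 57.5% ± 0.994, those with both ends trimmed in 50.8% ± 1.19 (adjusted p = 0.0402, exact permutation).

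**Figure D2:**
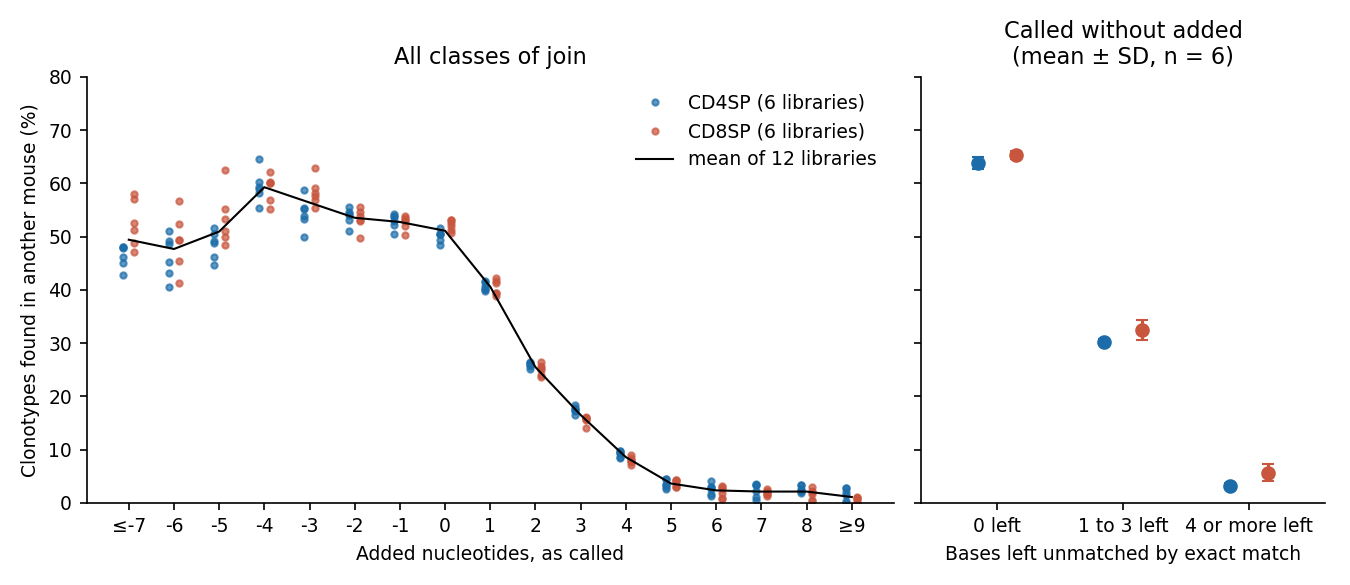
Share of clonotypes found in another mouse (%, y axis) by the called number of added nucleotides (left, points are libraries and the line their mean) and, for joins called without added nucleotides, by the bases left unmatched in an exact match (right, mean ± SD over the 6 libraries of each cell type). Sharing averages 51.1% at 0 and 3.63% at 5 added nucleotides, and 3.18% in CD4SP and 5.68% in CD8SP where 4 or more bases stay unmatched.

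Few clonotypes reached every mouse, and most of those had no added nucleotide. Of 579 clonotypes found in all 6 mice, 427 (73.7%) were without added nucleotides, 145 had 1 to 3 and 7 had 4 or more. Among all 123848 distinct clonotypes, 27610 were without added nucleotides. Of 38 found in all 12 libraries, 36 were without added nucleotides. Yet most members were seen in 1 mouse alone: 20410 (73.9%) of the 27610, against 97.4% of distinct clonotypes with 4 or more. At these read depths a clonotype seen in 1 mouse can have been missed in others, which was not tested. The 427 clonotypes common to all mice held 23.9% of the class's reads, while the 7 with 4 or more held 0.462% of theirs. Both ends were untrimmed in 26.2% of the 427, against 16.6% of the clonotypes of 1 mouse, and a palindromic fill was called in 16.2%, against 36.1%. TRAV7-2 was used by 24.8% and TRAJ22 by 11.7% of the 427. Counted per library, TRAV7-2 had 3754 and TRAJ22 3126 of the class's 44716 clonotypes. In joins of 4 or more, TRAV7-2 was used by 40.2% of 122 clonotypes of 3 mice and 51.9% of 27 of 4 mice. It was used there by 46.2% of 13 of 5 mice and 71.4% of the 7 of all mice. The high share of TRAV7-2 among widespread clonotypes was thus not particular to joins without added nucleotides.

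Sharing was higher within a cell type than across cell types, in all classes of join. In joins of 4 or more, a library of the same cell type of another mouse held 1.10% ± 0.0704 of clonotypes. A library of the other cell type of another mouse held 0.720% ± 0.0513 (lower in 6 of 6 mice, exact sign-flip permutation p = 0.03125). For joins of 1 to 3 these shares were 6.94% and 4.64%. A clonotype without added nucleotides was found in a single library of the same cell type of another mouse in 19.4% ± 0.225 of cases, and in a library of the other cell type of another mouse in 14.8% ± 0.114 (higher in 6 of 6 mice, exact sign-flip permutation p = 0.03125). The other library of the same mouse held 15.03% ± 0.656, a difference of 0.191 ± 0.567 points from other mice that did not pass (exact permutation p = 0.406). Libraries of the same genotype held 19.3% ± 0.408 and libraries of the other genotype 19.5% ± 0.511 (exact permutation p = 0.75). Whole-class sharing averaged 52.2% ± 0.799 in CD4SP and 53.6% ± 0.928 in CD8SP libraries, a difference of -1.34 points that did not pass (exact permutation p = 0.0625). That sign turned to 2.71 points (exact permutation p = 0.03125) once clonotypes of 1 read were left out.

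Trimming and length follow from the called ends that define the classes, so they are given as a description. The V end had lost 1.51 ± 0.0174 bases, against 2.64 ± 0.0330 in joins of 4 or more, and the J end 1.84 ± 0.0278, against 3.54 ± 0.0383 (SD over 6 mice). The CDR3 measured 39.3 ± 0.0562 nucleotides, against 41.5 ± 0.0776. GC content was 44.8% and 47.7%, and glycine, whose codons are rich in G, filled 20.1% ± 0.145 and 22.4% ± 0.195 of the middle 5 residues, counting the added bases in joins of 4 or more. Acidic residues filled 4.36% ± 0.0922 and 4.46% ± 0.0933. Of 7 measures other than end calls and base or residue content, 6 passed (adjusted p = 0.0349 each over the 19 measures computed, exact permutation, same direction in 6 of 6 mice). Sharing as nucleotides and as amino acids, which passed, compares whole CDR3s, added bases included. So does the share of amino acid clonotypes with several nucleotide sequences, which also passed. Each clonotype had 2.69 ± 0.0753 reads, against 1.71 ± 0.0230, and 5.08% of amino acid clonotypes were encoded by several nucleotide sequences, against 1.06%. Clonotypes of 1 read made up 40.2% ± 1.56 and 55.2% ± 1.11. The share of TRAJ42 to TRAJ61, at 17.3% ± 0.603 and 18.1% ± 0.905, did not pass (exact permutation p = 0.0625).

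Use of V and J segments differed between joins without added nucleotides and joins of 4 or more in the same libraries. Among 110 segments tested in CD4SP, 62 passed (56.4%), 30 higher and 32 lower without added nucleotides, and in CD8SP 70 of 112 passed (62.5%), 24 higher and 46 lower (edgeR's quasi-likelihood test, Benjamini-Hochberg adjusted p under 0.05). The median log2 fold change over all segments was -0.10 in CD4SP and -0.20 in CD8SP, and TMM scaling, which moved it to 0.02 and -0.03, gave 29 higher and 23 lower in CD8SP. DESeq2 gave 26 and 23 there. In both cell types 41 segments passed in the same direction, 16 higher and 25 lower, which is 66.1% of the calls in CD4SP and 58.6% of those in CD8SP.

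TRAJ22 (chromosome 14, 54197248 to 54197307) was the J segment most used in these joins. It took 7.40%, 7.82% and 8.72% of the reads without added nucleotides (lowest, median and highest of 6 CD4SP libraries), against 3.905%, 4.28% and 4.94% of the reads with 4 or more. In CD8SP it took 12.8%, 13.4% and 13.9%, against 5.197%, 5.51% and 6.73%. The classes did not overlap in either cell type, and the log2 fold change was 0.90 ± 0.072 in CD4SP (SE, adjusted p = 1.92e-20, edgeR) and 1.23 ± 0.065 in CD8SP (adjusted p = 6.89e-16, edgeR). With each clonotype counted once, these were 0.38 and 0.55. They were also smaller with palindromic bases counted as added in CD4SP (0.59) and for exactly meeting ends in CD8SP (0.37), and passed in each case.

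Among J segments near the constant gene, from TRAJ1 to TRAJ21, more were higher than lower. Of the 14 from TRAJ1 to TRAJ21, 8 were higher and 2 lower in CD4SP (median 0.43) and 7 higher and 1 lower in CD8SP (median 0.26), beside medians of -0.04 and -0.17 over all TRAJ. TRAJ7 took 2.45% ± 0.307 without added nucleotides and 1.08% ± 0.0708 with 4 or more in CD4SP, and 2.94% ± 0.268 and 1.24% ± 0.242 in CD8SP (log2 fold changes of 1.18 and 1.24). In CD8SP it was 0.25 and did not pass with palindromic bases counted as added (adjusted p = 0.0542, edgeR). TRAJ5, less used, had 1.16 ± 0.22 in CD4SP, where it was higher in 5 of 6 libraries, and 1.49 ± 0.23 in CD8SP. TRAJ12 had 0.70 and 1.03 (0.39 and 0.66 by exact match), and TRAJ16 had 0.76 and 0.74. Of the 13 from TRAJ42 to TRAJ61, near the V cluster, 2 were higher and 4 lower in CD4SP and 1 higher and 7 lower in CD8SP. Over all 43 TRAJ, 13 were higher and 15 lower in CD4SP, and 11 higher and 18 lower in CD8SP. The share called in TRAJ42 to TRAJ61 was thus smaller than over all TRAJ. In TRAJ1 to TRAJ21 the share called in either direction lay near that over all TRAJ, somewhat above it in CD4SP and below it in CD8SP. As a group, TRAJ1 to TRAJ21 were used by 36.2% ± 0.973 of clonotypes without added nucleotides and 28.8% ± 0.622 of those with 4 or more.

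J segments lower without added nucleotides included TRAJ40, at 1.78% ± 0.0572 against 3.201% ± 0.386 in CD4SP and 1.38% ± 0.0876 against 2.805% ± 0.397 in CD8SP (log2 -0.85 and -1.02). TRAJ44, TRAJ37 and TRAJ34 were also lower in both cell types. With each clonotype counted once, TRAJ44 had log2 fold changes of -0.40 and -0.65 and TRAJ34 -0.40 and -0.22, and for exactly meeting ends TRAJ34 did not pass in CD8SP (0.0067, adjusted p = 0.965, edgeR). TRAJ24 (chromosome 14, 54195645 to 54195700) stood far from the rest, at 0.0921% ± 0.0104 against 4.17% ± 0.517 in CD4SP and 0.0846% ± 0.0316 against 5.18% ± 0.459 in CD8SP. For TRAJ24, 80.6% of 1611 joins carried the same 3 bases next to the called J end, and 97.6% of its clonotypes were called untrimmed. For TRAJ47, also lower, that share was 47.1% of 662 joins. Bases counted as added beside TRAJ24 were therefore mostly the same ones, and whether they are part of the segment in these mice was not tested. Without TRAJ24, TRAJ47 and TRAV9-2, which showed the same 3 bases in 100% of 49 joins, 57 and 68 segments passed, and the difference in sharing between classes was 48.2 points.

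**Figure D3:**
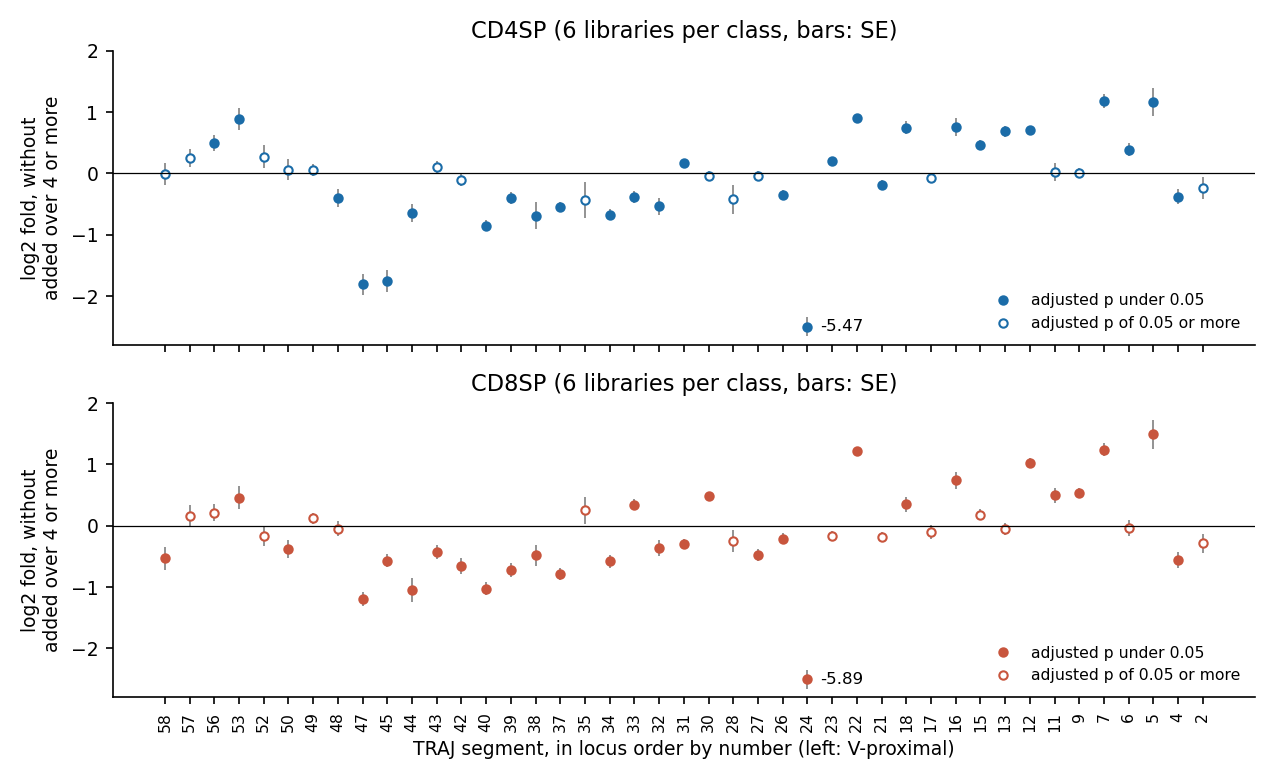
log2 fold change of the share of reads using each TRAJ segment, joins without added nucleotides over joins of 4 or more (y axis, bars are SE), along the J cluster (x axis) in CD4SP (top) and CD8SP (bottom). Filled points passed. TRAJ22, TRAJ12, TRAJ7 and TRAJ5 lie above 0 in both panels, and TRAJ24 (-5.47 and -5.89) is drawn at the lower edge.

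Among V segments, both TRAV16 members were higher. TRAV16N took 4.43%, 4.86% and 5.46% of the reads without added nucleotides (lowest, median and highest CD4SP library), against 2.22%, 2.44% and 3.02% with 4 or more. In CD8SP it took 13.8%, 14.4% and 15.5%, against 4.46%, 6.20% and 6.68%. The log2 fold changes were 0.95 ± 0.085 and 1.29 ± 0.065, and those of TRAV16D-DV11 were 1.05 ± 0.19 and 1.33 ± 0.14. Counted once per clonotype, TRAV16N had 0.60 in CD8SP, and with palindromic bases as added TRAV16D-DV11 had 0.66 in CD4SP. TRAV4D-4 had 1.38 ± 0.14 in CD4SP, at 1.74% ± 0.214 against 0.664% ± 0.138, 0.87 with each clonotype counted once, while in CD8SP it had 0.07 ± 0.30 and did not pass (adjusted p = 0.868). Of 7 TRAV14 segments tested, 4 were higher and 0 lower in CD4SP, and 3 higher and 2 lower in CD8SP, so the number called lay near the 56.4% and 62.5% over all segments. In TRAV12, 0 were higher in either cell type, while 2 of 6 in CD4SP and 3 of 7 in CD8SP were lower, a smaller share called than over all segments. TRAV7-5, a much used segment, took 8.79% ± 0.693 against 11.99% ± 1.21 in CD4SP and 9.03% ± 0.499 against 14.2% ± 1.13 in CD8SP (log2 -0.45 and -0.65). Near-identical copies of many TRAV segments share reads, so values of single copies are uncertain.

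Seen from the segment's side, the share of its own clonotypes that had no added nucleotide ran from 43.4% ± 5.18 for TRAJ5 to 21.3% ± 1.36 for TRAJ40 and 3.68% ± 1.07 for TRAJ24 (SD over 12 libraries). TRAJ53, TRAJ18, TRAJ7 and TRAJ16 followed TRAJ5, with 36.7%, 36.4%, 36.2% and 35.5%. Among V segments TRAV16D-DV11 had 39.9% ± 2.999 and TRAV8-1 37.5% ± 3.36, and TRAV7-5 and TRAV7-2 had the lowest shares, 24.7% ± 1.00 and 22.4% ± 1.94. TRAV7-2 was nevertheless among the most shared: 72.5% ± 2.25 of its clonotypes without added nucleotides were found in another mouse, at the libraries' full depths. TRAV16N had 72.1% ± 2.66 and TRAV7-5 67.8% ± 2.45, whereas TRAV13N-1 had 40.1% ± 7.34. Among J segments TRAJ22 had 66.3% ± 3.02 and TRAJ12 64.3% ± 3.29, and TRAJ32 had 40.0% ± 11.8. In joins of 4 or more, 16.1% of 4347 TRAV7-2 clonotypes and 8.01% of 1386 TRAV16N clonotypes were found in another mouse, pooled over libraries. A frequent V or J offers more clonotypes to match, and its part in these shares was not tested.

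The 5 pairs with most clonotypes without added nucleotides were TRAV7-2 with TRAJ23 (249), TRAV7-2 with TRAJ9 (234), TRAV7-5 with TRAJ23 (229), TRAV7-5 with TRAJ31 (228) and TRAV16N with TRAJ22 (200). They came from 68 to 108 distinct CDR3s each, so the same joins recurred in several libraries. TRAV16N with TRAJ22 made up 0.262% ± 0.0474 of the class's clonotypes in CD4SP and 0.626% ± 0.0387 in CD8SP (SD, n = 6 each). Of joins of 4 or more it made up 0.162% and 0.416%, so it was also lower in CD4SP there. TRAV7-2 with TRAJ23 made up 0.740% and 0.388% of this class, against 0.755% and 0.574% of joins of 4 or more. TRAV7-5 with TRAJ31 had 0.534% and 0.496%, against 0.642% and 0.742%. A high rank thus does not mark a pair as favoured in this class.

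No feature of these joins passed a test between KO and WT mice. Their share of reads differed between KO and WT by -0.361 ± 0.256 points in CD4SP and 0.160 ± 0.298 in CD8SP (SD over 3 pairs, exact sign-flip permutation p = 0.25 and p = 1, where 3 pairs cannot go below 0.25). Sharing with other mice was 52.2% ± 0.349 in KO and 52.2% ± 1.21 in WT CD4SP, and 53.3% ± 0.349 in KO and 53.9% ± 1.32 in WT CD8SP. Of 21 measures, 4 in CD4SP and 2 in CD8SP had groups that did not overlap, and 1 of them in both: TRAJ1 to TRAJ21 were used by 37.4% ± 1.32 of KO and 35.4% ± 0.540 of WT clonotypes in CD4SP, and by 36.6% ± 0.462 of KO and 35.5% ± 0.547 of WT clonotypes in CD8SP. It was higher in KO in 3 of 3 pairs in each cell type and did not pass (adjusted p = 0.438 and 0.829, exact permutation).

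In the fit of all segments by class of join, 0 of the 114 segments without added nucleotides passed between KO and WT in CD4SP or in CD8SP, as in the whole table (0% of 339 in each). At an unadjusted p under 0.05 there were 4 and 7, and DESeq2 also called 0, with 2 and 3 unadjusted. The median standard error was 0.19 and 0.17 on the log2 scale. In CD4SP, TRAJ27 took 1.48%, 1.63% and 1.39% of productive reads in KO libraries, against 1.84%, 1.67% and 1.79% in WT libraries (log2 -0.23 ± 0.098, adjusted p = 0.987, edgeR). The groups did not overlap, by a narrow gap. TRAJ27, like TRAJ42 and TRAJ7 below, is named for its small p, and how many of the 114 segments also separated was not counted. In CD8SP, TRAJ42 took 0.286%, 0.338% and 0.330% in KO libraries, against 0.415%, 0.428% and 0.433% in WT libraries (log2 -0.42 ± 0.16, adjusted p = 0.761, edgeR). TRAJ7 took 1.15%, 1.21% and 1.22% in KO CD8SP libraries, against 0.988%, 1.01% and 1.03% in WT CD8SP libraries (log2 0.24 ± 0.11, adjusted p = 0.761). Of 273 clonotypes tested, 220 were without added nucleotides, and 0 passed between KO and WT in either cell type (0% of all in each, 3 unadjusted in each cell type by edgeR, 7 and 5 by DESeq2). Their median standard error was 1.19 in CD4SP and 1.10 in CD8SP on the log2 scale. The difference between KO and WT was also set against the other cell type in the same fits, and 0 of 339 segments by class and 0 of 273 clonotypes passed (7 and 2 at an unadjusted p under 0.05).

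CD4SP and CD8SP cells, selected on MHC class II and class I, differed widely in the segments of these joins. The class took 35.0%, 35.5% and 36.6% of reads in CD4SP (lowest, median and highest library), against 37.0%, 37.4% and 37.8% in CD8SP, with no overlap and lower in CD4SP in 6 of 6 mice (exact sign-flip permutation p = 0.03125, adjusted p = 0.0505 over 21 measures). This difference of -1.69 points was -0.525 (p = 0.0938) with added bases recounted by exact match and turned to 0.881 (p = 0.0625) without clonotypes of 1 read. Joins with both ends untrimmed made up 15.98% ± 0.301 of clonotypes in CD4SP and 20.3% ± 0.609 in CD8SP, and acidic residues filled 3.43% ± 0.149 and 5.30% ± 0.115 of the middle of the loop (SD, n = 6 each). Reads per clonotype were 2.34 ± 0.121 in CD4SP, from more sorted cells, and 3.05 ± 0.125 in CD8SP. In all, 13 of 21 measures had groups that did not overlap. Each of these stood at the smallest p that 6 mice allow, and 0 of the 21 passed after adjustment. Permuting the labels without the mouse as a block treats the libraries of a mouse as independent. It gave an unadjusted exact p = 0.00216 for each of the 13. Any groups of 6 libraries without overlap give that value, so it adds nothing to the lack of overlap.

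By segment, 82 of 114 tested without added nucleotides passed between CD4SP and CD8SP (38 higher in CD4SP, 44 lower), beside 64% of the whole table. As a share of all productive reads, TRAV16N took 1.55%, 1.73% and 1.94% in CD4SP (lowest, median and highest library), against 5.12%, 5.43% and 5.76% in CD8SP (log2 -1.64 ± 0.053, adjusted p = 2.1e-162, edgeR). TRAV16D-DV11 was lower by the same test (-1.81 ± 0.095). TRAJ45 took 0.0998%, 0.144% and 0.168% in CD4SP, against 0.496%, 0.591% and 0.679% in CD8SP (-2.14 ± 0.14). TRAJ30 had -1.09 ± 0.063, TRAJ33 -0.97 ± 0.077 and TRAJ22 -0.80 ± 0.050. With each clonotype counted once, TRAV16N had -0.92, TRAV16D-DV11 -1.20, TRAJ30 -0.72 and TRAJ33 -0.63, and each passed. For TRAJ22 the sign turned to 0.25 when only joins whose called ends meet exactly were counted, which leaves out joins such as the TRAV14 ones printed above.

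Higher in CD4SP were all 7 TRAV14 segments tested (median 0.57) and 3 of 5 TRAV4 segments (median 1.47), beside a median of -0.10 over all TRAV. TRAV4D-4 (chromosome 14, 52990889 to 52991389) took 0.534%, 0.615% and 0.745% in CD4SP, against 0.0513%, 0.0784% and 0.124% in CD8SP (log2 2.83 ± 0.15). TRAV7-2 took 5.33%, 5.85% and 6.25% in CD4SP, against 2.44%, 2.88% and 3.33% in CD8SP (1.01 ± 0.049). TRAV14D-3-DV8 had 1.899 ± 0.12, TRAJ31 0.84 ± 0.060 and TRAJ13 0.81 ± 0.078. With each clonotype counted once, TRAV4D-4 had 1.73, TRAV7-2 0.60, TRAJ31 0.54 and TRAJ13 0.34, and each passed. Lower were both TRAV16 segments, 4 of 7 TRAV12 segments and both of TRAV1 and TRAV2. Over all 71 TRAV tested, 21 were higher and 29 lower in CD4SP. Counting both directions, the shares of TRAV4 and TRAV12 segments called were smaller than over all TRAV.

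Of 110 segments tested in both classes of join, 80 passed without added nucleotides and 55 with 4 or more, and all 49 that passed in both had the same direction. Several differed more in joins without added nucleotides. TRAJ13 had a log2 fold change CD4SP over CD8SP of 0.81 ± 0.078 without added nucleotides and 0.10 ± 0.12 with 4 or more, and TRAJ45 had -2.14 ± 0.14 and -0.91 ± 0.14. The difference between cell types of the difference between classes was tested in 1 fit, and 26 of 112 segments passed (23.2%, 14 higher and 12 lower, edgeR). By exact match 28 passed, of which 21 were the same segments.

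**Figure D4:**
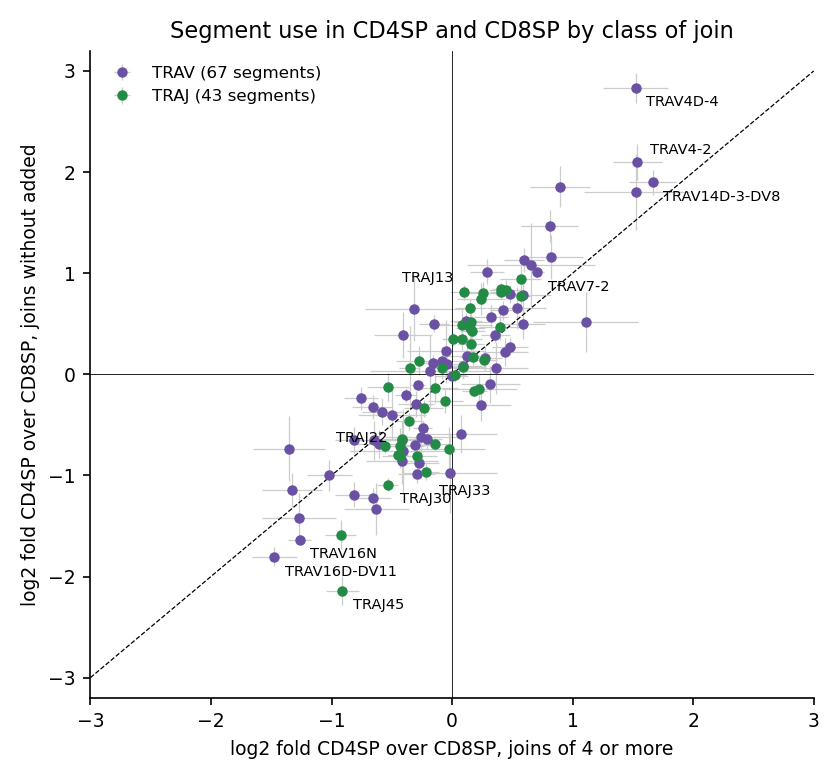
log2 fold change CD4SP over CD8SP of each segment in joins without added nucleotides (y axis) against that in joins of 4 or more (x axis), bars are SE, for 67 TRAV and 43 TRAJ segments. The dashed line marks equal values. TRAV4D-4 and TRAJ45 lie farther from 0 without added nucleotides, and TRAJ13 is near 0 with 4 or more.

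Single clonotypes without added nucleotides also differed by cell type: 117 of 220 tested passed, 50 higher and 67 lower in CD4SP, beside 56.4% of all 273 (edgeR). Of those with TRAV16N, 0 were higher and 31 lower of 51, and of those with TRAV7-2, 29 were higher and 2 lower of 52. All 7 with TRAV8-1 were lower. TRAV14N-3 with TRAJ22, printed above, was the most read, with 763 reads in all: 15, 23 and 40 reads in CD4SP libraries (lowest, median and highest), against 86, 97.5 and 122 in CD8SP libraries. Per 10000 productive reads it had 10.2 ± 2.59 in CD4SP and 33.2 ± 5.2 in CD8SP (log2 -1.72 ± 0.18, adjusted p = 2.44e-10, lower in CD4SP in 6 of 6 mice), and the groups did not overlap.

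The same CDR3 with TRAV14D-2 was also lower in CD4SP, at 9.497 ± 1.43 against 27.5 ± 3.91 per 10000 reads (log2 -1.53 ± 0.20). With TRAV14D-1 it was 10.1 ± 2.52 against 11.7 ± 1.45 and did not pass (-0.23 ± 0.29, adjusted p = 0.491). In at least some rows the V calls of TRAV14D-2 and TRAV14D-1 were tied with another segment, while that of TRAV14N-3 was not. V calls were also tied in at least some rows of TRAV3D-3 with TRAJ22, of the TRAV7-2 and TRAV6-6 joins printed above, and of TRAV7-2 with TRAJ37. How the reads of all these joins divide between V copies is therefore uncertain. TRAV3D-3 with TRAJ22, which differs in the V part alone, had 4.87 ± 1.24 in CD4SP and 12.8 ± 1.72 in CD8SP (log2 -1.41 ± 0.35, adjusted p = 0.00106). With no filter on low counts, which brings many more clonotypes into the adjustment, these 3 did not pass (adjusted p up to 0.897). The other 7 joins of the 10 most widespread, among them TRAV7-2 with TRAJ9 (482 reads, log2 -0.41 ± 0.27, adjusted p = 0.18) and TRAV6-6 with TRAJ30 (213 reads), did not pass. Of the joins of 4 or more, TRAV7-2 with TRAJ37 had 5.94 ± 0.723 in CD4SP and 0.358 ± 0.304 in CD8SP (log2 3.98 ± 0.85, adjusted p = 0.000212).

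**Figure D5:**
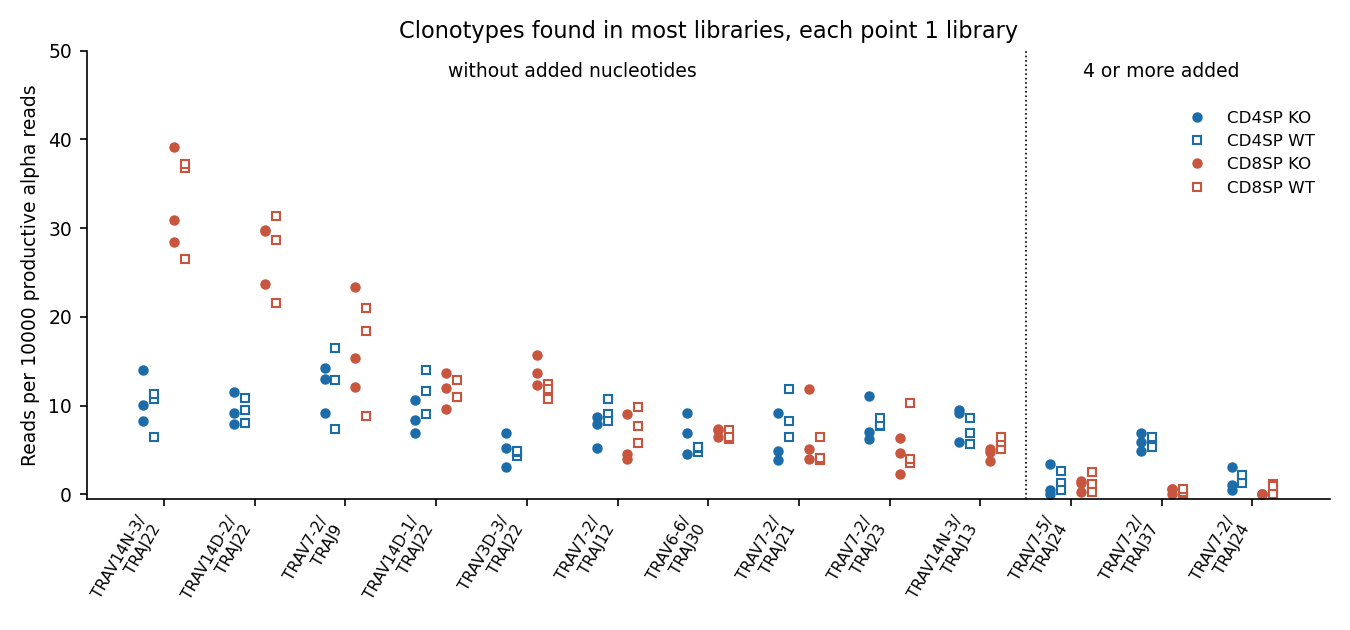
Reads per 10000 productive alpha reads (y axis) of the 10 clonotypes without added nucleotides and the 3 with 4 or more that were found in most libraries (x axis), each point 1 library. In TRAV14N-3 with TRAJ22 and TRAV14D-2 with TRAJ22 all 6 CD8SP libraries lie above the 6 CD4SP libraries.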

How the data were processed

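RNA of sorted thymocytes was made into TCR libraries with a SMARTer kit for mouse alpha and beta chains and read on a MiSeq, per the labels' protocols. The authors deposited 1 clonotype table per library and chain family, whose read counts per clonotype are raw, per the file headers. The tables carry alignment marks of MiXCR, which the series design text names with VDJtools. Its version and settings are not given in the sources used here, and the build was mm10, per the submitters' processing notes. The tables hold no molecular identifiers, so reads are not independent molecules, and intervals and errors cover only what these counts show. Libraries held 18555 to 33867 productive alpha reads without the invariant chain, which limits what rare clonotypes can show.

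Added nucleotides were the called J start minus the called V end, with palindromic bases inside the calls. Rows of the same V, J and CDR3 nucleotides were merged. For sharing, each library was thinned to 18555 reads in 20 draws, and libraries of the same mouse were not searched. Library values were compared by exact two-sided sign-flip permutation over 3 pairs or 6 mice, with Benjamini-Hochberg adjustment. Reads per segment, segment by class, and clonotype were tested with edgeR 4.0.16 (limma 3.58.1, R 4.3.3, quasi-likelihood, filterByExpr, adjusted p under 0.05), after the scripts were tested on simulated data. DESeq2 1.42.0 was an alternative, and tables were handled with python 3.11.15, numpy 2.4.6, pandas 2.3.3 and matplotlib 3.10.9. All 140 segments matched RefSeq GRCm38.p6.

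Numbers pair a KO with a WT mouse, per the design text, and join the libraries of each mouse. Deviations of same-numbered KO and WT libraries correlated between -0.0754 and 0.116, and those of both libraries of 1 mouse between -0.0843 and 0.142. Segments were named where they passed, at most 10 per direction, comparison and kind by size among those with at least 0.5% of reads in either class, or the 5 of smallest p where fewer than 5 passed. Clonotypes were named by the number of libraries and then reads, pairs and own shares as the 5 largest (or lowest), the latter among segments of at least 500 clonotypes. Segments outside this rule are named where a list or check concerns them. The class, its members and the segment lists were chosen with earlier results of these data known. Alternatives numbered 5 beyond the planned ones, chosen after seeing the data: leaving out TRAJ24, TRAJ47 and TRAV9-2, counting palindromic bases as added, recounting by exact match, matching J and CDR3 alone, and 1 fit of class by cell type. Beta chain tables were not used here.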

Additional observations from a re-analysis of the deposited data

Results flagged for a closer look

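For 22 segments named in the comparisons, the difference in use between joins without added nucleotides and joins of 4 or more was itself different in CD4SP and CD8SP, by the test of that difference in 1 edgeR fit (adjusted p under 0.05). Values are the log2 fold change in CD4SP minus that in CD8SP. Among J segments the difference was positive for TRAJ13 (0.7389), TRAJ42 (0.5584), TRAJ43 (0.5211), TRAJ31 (0.4649) and TRAJ27 (0.4372). It was negative for TRAJ45 (-1.185), TRAJ33 (-0.7275), TRAJ47 (-0.6187), TRAJ30 (-0.5269), TRAJ9 (-0.5267), TRAJ22 (-0.3251) and TRAJ12 (-0.3219). Among V segments it was positive for TRAV4D-4 (1.326), TRAV21/DV12 (0.7459), TRAV7N-6 (0.5362), TRAV14D-1 (0.4244) and TRAV7-2 (0.3294). It was negative for TRAV8-1 (-0.6607), TRAV3D-3 (-0.5481), TRAV7D-3 (-0.4007), TRAV7-3 (-0.3762) and TRAV16N (-0.3396). With added nucleotides recounted by exact match, 18 of the 22 passed, and 4 did not: TRAJ22 (-0.14, adjusted p = 0.272, edgeR), TRAJ12 (-0.27, adjusted p = 0.0656), TRAV8-1 (-0.31, adjusted p = 0.158) and TRAV7N-6 (0.50, adjusted p = 0.0625).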

How the results depend on the processing

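Of 299 alternative values of comparisons, 230 kept direction and side of the threshold. Of 2257 alternative values of single segments, 2120 did, 118 no longer passed and 19 changed sign. The causes of the changes were not tested unless stated. Leaving out replicates left 5 or fewer mice, which cannot reach p = 0.03125 in an exact sign-flip permutation test, so these values no longer pass by construction.

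The share of reads in CD4SP minus CD8SP was -0.699 points as a share of clonotypes, 0.881 without clonotypes of 1 read, 0.303 for joins whose ends meet exactly and -0.525 by exact match. KO minus WT in CD4SP it was 0.114 without tied segments and 0.0758 for exactly meeting ends, and in CD8SP -0.0616 for the latter. Sharing in KO minus WT, near 0 in CD4SP, was -1.50 without clonotypes of 1 read, -0.00961 without tied segments, -0.000265 for exactly meeting ends, -1.54 unthinned, -0.415 as amino acids, -0.0309 without TRAJ24, TRAJ47 and TRAV9-2, -0.225 by exact match and -0.550 by J and CDR3 alone. In CD8SP it was 0.0792 by exact match. Sharing in CD4SP minus CD8SP was 2.71 without clonotypes of 1 read and 0.626 by J and CDR3 alone. It passed at -3.11 without tied segments, -1.92 for exactly meeting ends, -1.31 without TRAJ24, TRAJ47 and TRAV9-2 and -2.10 with palindromic bases counted as added.

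Without the replicate block, sharing in CD4SP minus CD8SP, -1.34 points, passed (exact permutation of labels, p = 0.013), and 0 segments and 0 clonotypes passed between KO and WT in either cell type, as with it. Segments that passed numbered 39 in CD4SP with each clonotype counted once, and in CD8SP 46 without clonotypes of 1 read and 45 for exactly meeting ends. Clonotypes that passed by cell type numbered 60 without tied segments, 43 for exactly meeting ends and 65 with no filter, under which more clonotypes enter the adjustment.

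Among exactly meeting ends alone, log2 fold changes over joins of 4 or more changed sign for TRAJ56 (-0.77) and TRAV8-1 (-0.11) in CD4SP, and for TRAV8-1 (-0.23), TRAJ9 (-0.20), TRAJ34 (0.0067), TRAJ45 (0.18), TRAJ4 (0.24) and TRAJ18 (-0.081) in CD8SP. TRAV8-1 between KO and WT CD8SP was then -0.19, and TRAJ22 between CD4SP and CD8SP 0.25. With palindromic bases counted as added, TRAV11 was -0.28 in CD4SP and -0.70 in CD8SP, TRAJ11 -0.36 and TRAV1 -0.0496. Without tied segments TRAV6-3 was 0.20 in CD4SP and 0.14 in CD8SP. With each clonotype counted once TRAV6-2 was 0.0505 in CD4SP, and TRAV14D-1 -0.0059 and TRAV13D-1 0.0597 in CD8SP.

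With replicates left out, the share differed by -2.01 to -1.38 points between cell types, -0.454 to -0.215 between KO and WT in CD4SP and -0.0118 to 0.247 in CD8SP. Sharing differed by 40.1 to 45.1 points between classes, -1.77 to -0.894 between cell types, -0.474 to 0.153 between KO and WT in CD4SP and -1.35 to 0.317 in CD8SP. The classes differed by -1.15 to -1.12 bases of V trimming, -1.71 to -1.68 of J trimming, -2.22 to -2.20 of CDR3 length, 0.959 to 1.00 reads per clonotype, 3.899 to 4.09 points of amino acid clonotypes with several sequences and -2.38 to -2.33 points of glycine. Calls numbered 51 to 63 and 60 to 67 for use in CD4SP and CD8SP, 76 to 82 for segments and 81 to 106 for clonotypes by cell type, and 0 between KO and WT.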
